A study of Mus musculus with 8 samples.

Results

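The data describe 10 genes of mouse liver that mark hepatocytes around the central vein or answer to WNT signalling, namely Glul, Oat, Axin2, Lgr5, Tbx3, Rhbg, Slc1a2, Lect2, Gulo and Nkd1. They were picked by gene name, and the set was written with earlier results of these data known. Matching was by Ensembl identifier among 51826 genes of the TAA table and 55416 genes of the APAP table. Of these, 48286 were in both. All 10 were found once in each table and all 10 passed the filter on low counts in both comparisons. Livers of wild-type male C57BL/6J mice aged 8 to 9 weeks were taken 24 h after treatment and fell into 4 groups of 2 livers each. Fed mice received PBS or TAA (thioacetamide) at 200 mg/kg into the peritoneum. Mice fasted overnight received PBS or APAP (acetaminophen) at 500 mg/kg into the stomach, and fasting lasted another 6 h after APAP. Both compounds are turned into toxic products by enzymes of pericentral hepatocytes, and the question asked here is what each injury left of the pericentral and WNT-dependent transcripts. The labels do not say how the replicates were raised or prepared, so the p values measure only the spread between these livers.

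Hepatocytes differ along the way that blood takes through the lobule, from the portal tract to the central vein. Endothelial cells of the central vein secrete WNT ligands and R-spondin, which stabilise beta-catenin in the hepatocytes next to it, where beta-catenin with TCF and LEF factors switches on a pericentral set of genes. These hepatocytes capture the ammonia that periportal urea synthesis leaves behind and build it into glutamine. The same signal switches on genes that feed back on WNT signalling itself, which makes them common readouts of the pathway. In whole liver, fewer cells of a type and less RNA per cell cannot be told apart.

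The 10 genes ranked in the same order of level in both control groups. Levels between genes were compared as TPM (counts divided by exon length and scaled to a fixed total), which put Oat first at 853 ± 341 TPM (SD, n = 2) and Glul second at 647 ± 73.4 TPM (SD, n = 2) in PBS livers, and these 2 did not differ beyond their spread. Gulo followed at 450 ± 33.6 TPM and Lect2 at 272 ± 23.9 TPM (SD, n = 2 each). Slc1a2 at 34.1 ± 0.15 TPM and Rhbg at 29.3 ± 3.46 TPM stood much lower (SD, n = 2 each). The 4 genes of regulation and feedback were the lowest, with Tbx3 at 8.85 ± 0.49, Axin2 at 3.67 ± 0.23, Nkd1 at 2.79 ± 0.04 and Lgr5 at 1.63 ± 0.25 TPM (SD, n = 2 each). Fasted PBS livers showed the same order, from Oat at 756 ± 125 TPM to Lgr5 at 1.12 ± 0.02 TPM (SD, n = 2 each). All other levels below are CPM (counts relative to a library total scaled by TMM), which compare 1 gene between livers of a model.

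After TAA the 10 genes were lower in both treated livers than in both PBS livers without exception, a pattern that 34.0% of all tested genes showed. The fall passed the test for Glul, Oat, Lgr5 and Slc1a2, which is 4 of 10 genes lower and none higher at an adjusted p under 0.05 (edgeR's quasi-likelihood test with Benjamini-Hochberg adjustment over all tested genes). Among all 16847 genes tested, 25.8% were called in either direction, 13.8% lower and 12.1% higher. The median log2 fold change of the 10 genes was -2.07, against 0.03 for all genes. After APAP, 8 of 10 genes fell and none rose, against 56.2% of 14794 genes called in either direction, 27.5% lower and 28.6% higher. Their median was -1.77, against 0.04 for all genes. Axin2 and Nkd1 were the 2 not called after APAP. The 2 groups of livers did not overlap for 9 genes, all lower after APAP, where 38.1% of all genes were so, and overlapped for Axin2. Glul, Oat, Lgr5 and Slc1a2 fell in both models, and 11.6% of the 13812 genes tested in both did so.

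**Figure D1:**
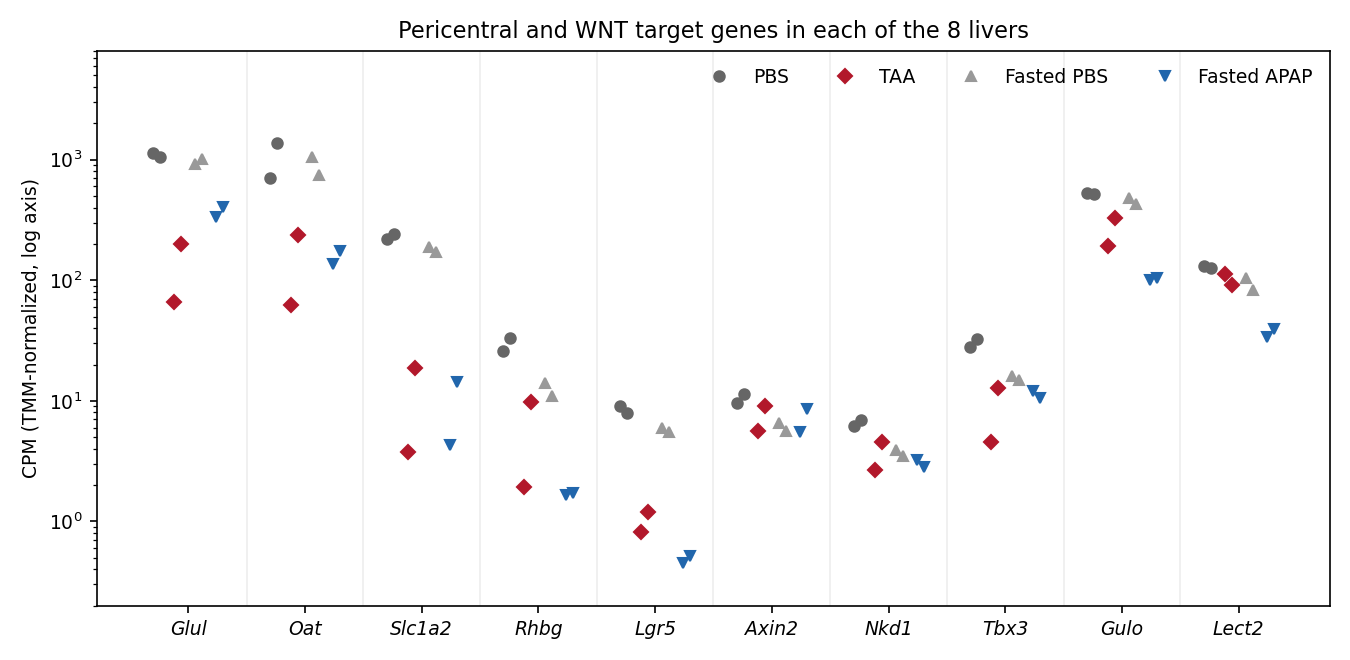
Level of each of the 10 genes in each of the 8 livers, in CPM on a log axis. Each point is 1 liver and the 4 groups stand side by side for each gene. For all genes but Lect2, Axin2 and Nkd1, both treated livers of the TAA model lie clearly under their controls, and Axin2 is the gene whose APAP livers overlap with the fasted PBS livers.

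Slc1a2, which encodes a sodium-dependent glutamate transporter of the plasma membrane, had the largest fall of the 10 in both models. The gene lies at chr2:102658659-102790784 on the plus strand (GRCm38, as all positions of genes here). It stood at 222 and 240 CPM in the PBS livers and at 3.76 and 18.6 CPM in the TAA livers. In the fasted livers it stood at 188 and 171 CPM with PBS and at 4.31 and 14.2 CPM with APAP. The groups were far apart in each model, although the 2 treated livers themselves were also apart. The log2 fold change was -4.37 after TAA (adjusted p = 0.0194 from edgeR, standard error 0.79), which is 20.7-fold lower. After APAP it was -4.26 (standard error 0.74, adjusted p = 0.0325 from edgeR), or 19.2-fold lower. The call after APAP was made in 9 of 13 alternatives, those that lost it including the fits without fasted PBS replicate 1, without fasted PBS replicate 2 and with no filter on low counts, and the adjusted p was up to 0.211 over all of them.

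Glul (chr1:153899944-153909723, plus strand) encodes glutamine synthetase, the enzyme of ammonia capture that in healthy liver is confined to the hepatocytes next to the central vein. Its level was 1144 and 1060 CPM in PBS livers and 65.5 and 199 CPM in TAA livers. In the APAP model it was 929 and 1012 CPM in fasted PBS livers and 335 and 402 CPM after APAP. The treated livers were thus separate from the controls in both models, with 12.0% of the control mean left after TAA and 38.0% after APAP. The log2 fold changes were -3.06 (standard error 0.55, adjusted p = 0.0176) and -1.40 (standard error 0.14, adjusted p = 1.86e-05 from edgeR).

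Oat (chr7:132557478-132576398, minus strand) encodes ornithine aminotransferase, which turns ornithine towards glutamate. It read 711 and 1384 CPM with PBS and 62.2 and 237 CPM with TAA, and 1044 and 751 CPM with fasted PBS and 136 and 176 CPM with APAP. Oat varied among controls more than the other 9 genes, 1.95-fold between the PBS livers, yet each treated liver lay under each control. The log2 fold change was -2.81 after TAA (standard error 0.73, adjusted p = 0.0457) and -2.52 after APAP (standard error 0.20, adjusted p = 1.97e-05 from edgeR).

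Rhbg (chr3:88242874-88254709, minus strand) encodes an ammonia transporter of the Rhesus family. Its level was 25.7 and 33.0 CPM in PBS livers against 1.92 and 9.75 CPM in TAA livers, and 14.0 and 10.9 CPM in fasted PBS livers against 1.64 and 1.73 CPM in APAP livers. The APAP livers were close to each other while the TAA livers were 4.24-fold apart. The log2 fold change of -2.33 after TAA did not pass the test (standard error 0.74, adjusted p = 0.0775), and that of -2.88 after APAP did (standard error 0.22, adjusted p = 4.2e-06 from edgeR). Exons of Rhbg share 1190 of 1937 bases with Gm38392, a gene model on the same strand that held 0 to 38.4 counts per liver. Part of the Rhbg reads may thus have been assigned there or to neither gene, and its level may be understated.

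**Figure D2:**
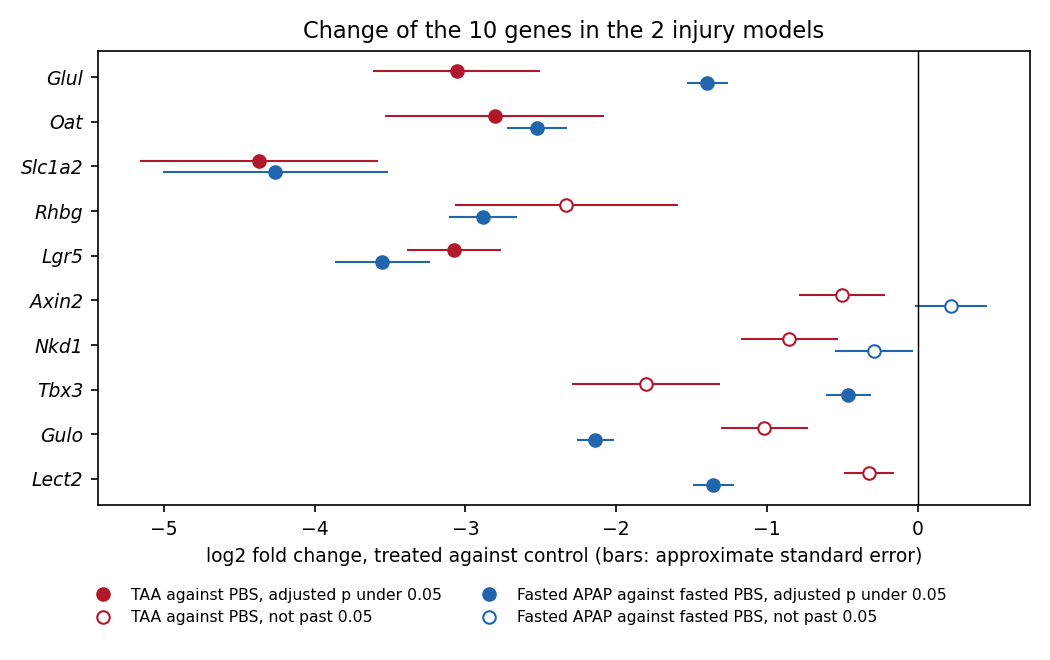
Log2 fold change of each of the 10 genes, TAA against PBS in red and fasted APAP against fasted PBS in blue, with bars for the approximate standard error and filled points for an adjusted p under 0.05. Slc1a2 lies furthest to the left in both models at -4.37 and -4.26, Axin2 and Nkd1 are open in both, and Lect2 and Gulo lie further left after APAP.

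Lgr5 (chr10:115450311-115587780, minus strand), a receptor for R-spondins that raises the response to WNT ligands, fell in both models. It is a low transcript, with 341 and 297 counts in PBS livers and 32 and 46 in TAA livers, or 9.13 and 7.97 CPM against 0.82 and 1.21 CPM. In the APAP model it had 146 and 120 counts in fasted PBS livers and 11 and 14 after APAP, or 5.93 and 5.54 CPM against 0.45 and 0.51 CPM. Treated and control livers were well separated and replicates were close in both models. Log2 fold changes were -3.08 after TAA (standard error 0.31, adjusted p = 0.00428) and -3.55 after APAP (standard error 0.32, adjusted p = 1.03e-05 from edgeR). Of the 10 genes Lgr5 was the only one called after TAA under every alternative tried.

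Axin2 (chr11:108920349-108950783, plus strand), a scaffold of the complex that degrades beta-catenin and a widely used readout of WNT signalling, was not called in either model. It had 9.51 and 11.3 CPM with PBS, 5.65 and 9.04 CPM with TAA, 6.58 and 5.59 CPM with fasted PBS and 5.54 and 8.63 CPM with APAP. The TAA livers lay under their controls by a small margin, and the APAP livers reached from just under to above theirs. Log2 fold changes were -0.50 after TAA (standard error 0.28, adjusted p = 0.24) and 0.22 after APAP (standard error 0.24, adjusted p = 0.462 from edgeR). Scaled to hepatocyte markers instead, Axin2 was called higher after APAP, at 0.71 on the log2 scale (adjusted p = 0.0221 from edgeR). With that scaling the median log2 fold change of all genes was itself 0.50. It called 56.3% of all genes, and 76.7% of these calls were higher.

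Nkd1 (chr8:88521354-88594884, plus strand), an inhibitor that binds Dishevelled and is itself induced by WNT signalling, read 6.21 and 6.90 CPM with PBS and 2.68 and 4.59 CPM with TAA. In the APAP model it read 3.90 and 3.46 CPM with fasted PBS and 3.20 and 2.83 CPM with APAP. The groups did not overlap in either model but the gaps were narrow, and neither log2 fold change was called (-0.85, standard error 0.32, adjusted p = 0.11 after TAA and -0.29, standard error 0.26, adjusted p = 0.367 after APAP from edgeR).

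Tbx3 (chr5:119670669-119684724, plus strand), a T-box transcription factor of pericentral hepatocytes, had 27.8 and 32.7 CPM with PBS against 4.53 and 12.8 CPM with TAA. With fasted PBS it had 16.1 and 14.8 CPM against 12.0 and 10.5 CPM with APAP. No treated liver reached a control, the treated livers being 2.64-fold apart after TAA and close to each other after APAP. The log2 fold change of -1.80 after TAA stood at the threshold (standard error 0.49, adjusted p = 0.051) and that of -0.46 after APAP passed it (standard error 0.15, adjusted p = 0.023 from edgeR), although the latter call was lost with library totals, hepatocyte scaling and several other settings. The antisense gene Tbx3os1, which shares 115 exon bases with Tbx3, had 569 and 607 counts with PBS against 15 and 70 with TAA. Whether the counting used strand is not given in the sources used here, so reads of the shared bases cannot be told apart.

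Gulo (chr14:65986786-66009207, minus strand), the last enzyme of ascorbate synthesis, which mice can make and humans cannot, stood at 528 and 517 CPM with PBS and 191 and 325 CPM with TAA. In the APAP model it stood at 478 and 425 CPM with fasted PBS and 101 and 104 CPM with APAP. Both injuries left the treated livers apart from the controls, with 49.4% of the control mean after TAA and 22.7% after APAP. Log2 fold changes were -1.02 after TAA, just past the threshold on the side not called (standard error 0.29, adjusted p = 0.0523), and -2.14 after APAP (standard error 0.12, adjusted p = 6.08e-07 from edgeR).

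Lect2 (chr13:56542464-56548502, minus strand) encodes a protein that hepatocytes secrete into blood, named for its pull on leukocytes. It had 131 and 125 CPM with PBS and 113 and 91.7 CPM with TAA, the smallest difference of the 10 genes in that model. In the APAP model it had 104 and 83.0 CPM with fasted PBS and 33.9 and 39.0 CPM with APAP. The TAA livers were just under their controls while the APAP livers were far under theirs. Log2 fold changes were -0.33 (standard error 0.17, adjusted p = 0.2) and -1.36 (standard error 0.13, adjusted p = 2.04e-05 from edgeR).

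Slc1a2 and Lect2, the genes with the largest and the smallest log2 fold change in size after TAA, were also the 2 whose promoter held a TCF/LEF word. RefSeq gave promoters (GRCm38.p6, 250 bases before to 50 after the start) for 6 of the 10 genes, Glul, Oat, Axin2, Slc1a2, Lect2 and Nkd1. They were searched on both strands for the word CTTTGAA, for CTTTGAT, for its variant CTTTGTA and for CTTTGTT, of which no 2 can overlap on 1 strand, and 16.9% of 32851 mouse promoters of this length held at least 1. Both matches were CTTTGAT on the strand opposite to the gene, with the first base at -207 in Slc1a2 and at -32 in Lect2, and the other 4 promoters had none. The sequences are printed to show where the word lies, with the match in capitals, for Slc1a2 at chr2:102706188-102706487 on the plus strand and Lect2 at chr13:56548489-56548788 on the minus strand. The starts that RefSeq gives for Slc1a2 and Nkd1 lie within the genes as placed above, so these 2 promoters are those of inner starts.
Slc1a2: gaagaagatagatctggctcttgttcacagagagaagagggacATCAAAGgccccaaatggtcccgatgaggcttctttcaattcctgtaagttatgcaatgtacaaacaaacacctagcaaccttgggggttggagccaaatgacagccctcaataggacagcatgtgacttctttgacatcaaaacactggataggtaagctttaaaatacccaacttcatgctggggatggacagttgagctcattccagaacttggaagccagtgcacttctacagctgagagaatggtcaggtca
Lect2: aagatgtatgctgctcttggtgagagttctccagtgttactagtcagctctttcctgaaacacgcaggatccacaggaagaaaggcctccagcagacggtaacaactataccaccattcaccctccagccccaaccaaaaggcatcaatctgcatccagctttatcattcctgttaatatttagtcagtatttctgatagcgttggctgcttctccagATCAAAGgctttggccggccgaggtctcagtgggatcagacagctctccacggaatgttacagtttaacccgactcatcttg
A match of 7 letters is a description of the sequence, and the data hold no measure of binding.

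The 2 TAA livers had lost the 10 genes to different degrees. TAA replicate 1 was the lower of the 2 for 9 genes, and Lect2 was the exception. Replicate 2 held 3.02 times as much Glul, 3.79 times as much Oat, 4.24 times as much Rhbg, 4.48 times as much Slc1a2 and 2.64 times as much Tbx3 as replicate 1 (CPM with 0.5 added), and these 5 ratios lay above the range of 0.64 to 1.75 that 5% to 95% of all tested genes covered. The median ratio was 2.12 for the 10 genes and 1.02 for all genes. Other pericentral genes showed a median ratio of 1.69, with 13 of 27 above that range, and periportal genes one of 1.02. The gap was not confined to pericentral lists. Other WNT feedback and target genes had a median of 1.52, with 4 of 11 above the range. Markers of stellate cells, endothelium and hepatocytes had 1.34, 1.30 and 1.26, and the remaining lists 0.85 to 1.20. In the APAP livers the ratio was 3.06 for Slc1a2 and 0.88 to 1.51 for the other 9 genes, against 0.70 to 1.44 for all genes. Summed over the 10 genes, the livers read 2814 and 3417 CPM with PBS, 450 and 909 CPM with TAA, 2789 and 2483 CPM with fasted PBS and 634 and 760 CPM with APAP. The sum is led by Glul, Oat and Gulo.

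**Figure D3:**
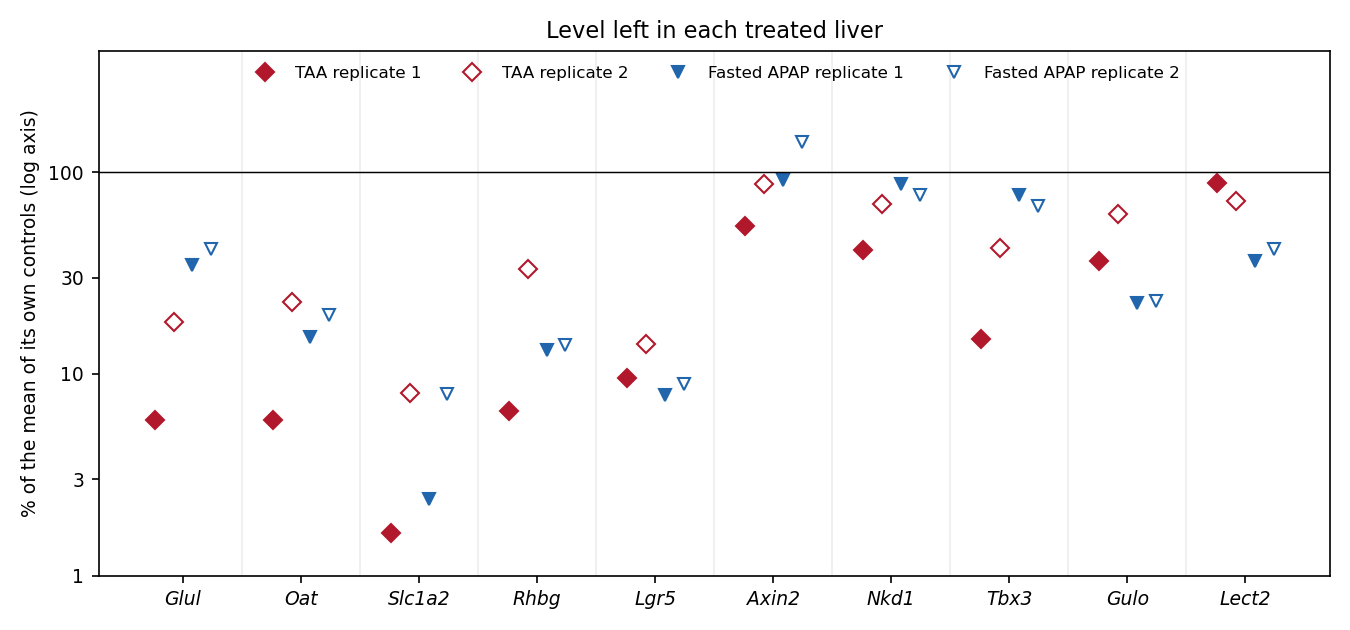
Level left in each treated liver as a percentage of the mean of its own 2 controls, on a log axis, with filled symbols for replicate 1 and open symbols for replicate 2. TAA replicate 1 held 1.63% of Slc1a2 and 5.94% of Glul, where TAA replicate 2 held 8.05% and 18.1%, and Axin2 reached 142% in APAP replicate 2.

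The calls after TAA rested on few livers. Without PBS replicate 1 or without PBS replicate 2, only Lgr5 of the 10 genes was called, while 1126 of 17737 and 737 of 17820 genes were called in all, and without TAA replicates 1 and 2 the test called 6 and 8 of the 10, against 18.2% and 18.6% of all genes. A fit that drew its estimate of spread from all 8 livers called 8 of 10, all lower, against 34.4% of all genes. After APAP, 6 to 8 of the 10 genes were called whichever liver was left out, against 43.5% to 46.9% of all genes.

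The effects of the models were set against each other in 1 fit over all 8 livers, as the TAA effect minus the APAP effect. The difference was called for Lect2 only of the 10 genes, against 11.0% of 17381 genes in either direction. For Lect2 the effects of -0.33 and -1.36 differed by 1.00 on the log2 scale in that fit (adjusted p = 0.0252 from edgeR, standard error 0.22). The call was lost without PBS replicate 1, PBS replicate 2, fasted PBS replicate 1 or either APAP liver, and with livers scaled to hepatocyte markers. The differences of 1.09 for Gulo (standard error 0.32, adjusted p = 0.0631) and -1.69 for Glul (standard error 0.63, adjusted p = 0.14 from edgeR) were not called. For Slc1a2, Oat and Lgr5 the differences of -0.13, -0.31 and 0.45 had adjusted p values of 1, 0.9 and 0.537 by edgeR. Feeding, dose, route and the way the counts were made all differ between the models together with the toxicant, so their parts cannot be told apart.

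Further pericentral genes were called lower more often than higher. Among all tested genes, 13.8% were called lower after TAA and 27.5% after APAP. Of 27 further pericentral genes, all tested, 13 fell and 1 rose with TAA at a median log2 fold change of -1.81, and 22 fell and 2 rose with APAP at a median of -1.77. Cyp2e1, the cytochrome that activates both toxicants, fell in each model, its log2 fold change being -2.13 with TAA and -1.29 with APAP (adjusted p = 0.0386 and 2.14e-05 from edgeR). Aldh1a1, a retinaldehyde dehydrogenase, fell too (-1.16 and -1.31 on the log2 scale, adjusted p = 0.0346 and 2.32e-05). Some went the other way in 1 model. Gstm3, a glutathione transferase, rose by 2.69 after TAA (adjusted p = 0.027 from edgeR). Por, the reductase that hands electrons to cytochromes P450, rose by 1.27 after APAP (adjusted p = 1.85e-05 from edgeR). In the other model both had negative log2 fold changes with library totals or hepatocyte scaling, -2.50 to -2.18 for Gstm3 after APAP and -0.55 for Por after TAA. Genes of the opposite zone were mostly lower as well. Of 22 periportal genes, 13 fell and 2 rose with TAA at a median of -1.20, and 15 fell and 4 rose with APAP at a median of -0.96. Cps1, the first enzyme of the urea cycle, fell in both models (-1.18 and -2.30, adjusted p = 0.0387 and 5.09e-06), and Apoa4, an apolipoprotein, rose by 1.90 and 6.92 (adjusted p = 0.0039 and 1.54e-08 from edgeR). The TAA calls of Cyp2e1, Aldh1a1, Gstm3, Cps1 and Apoa4 were each lost in some fit that left out a liver. The APAP calls named for these zones were kept in every such fit. Without PBS replicates 1 and 2, 4 and 4 of the other pericentral genes and 7 and 4 of the periportal genes were lower after TAA. Scaled to hepatocyte markers, 4 of the 22 periportal genes were lower after TAA and 11 after APAP.

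**Figure D4:**
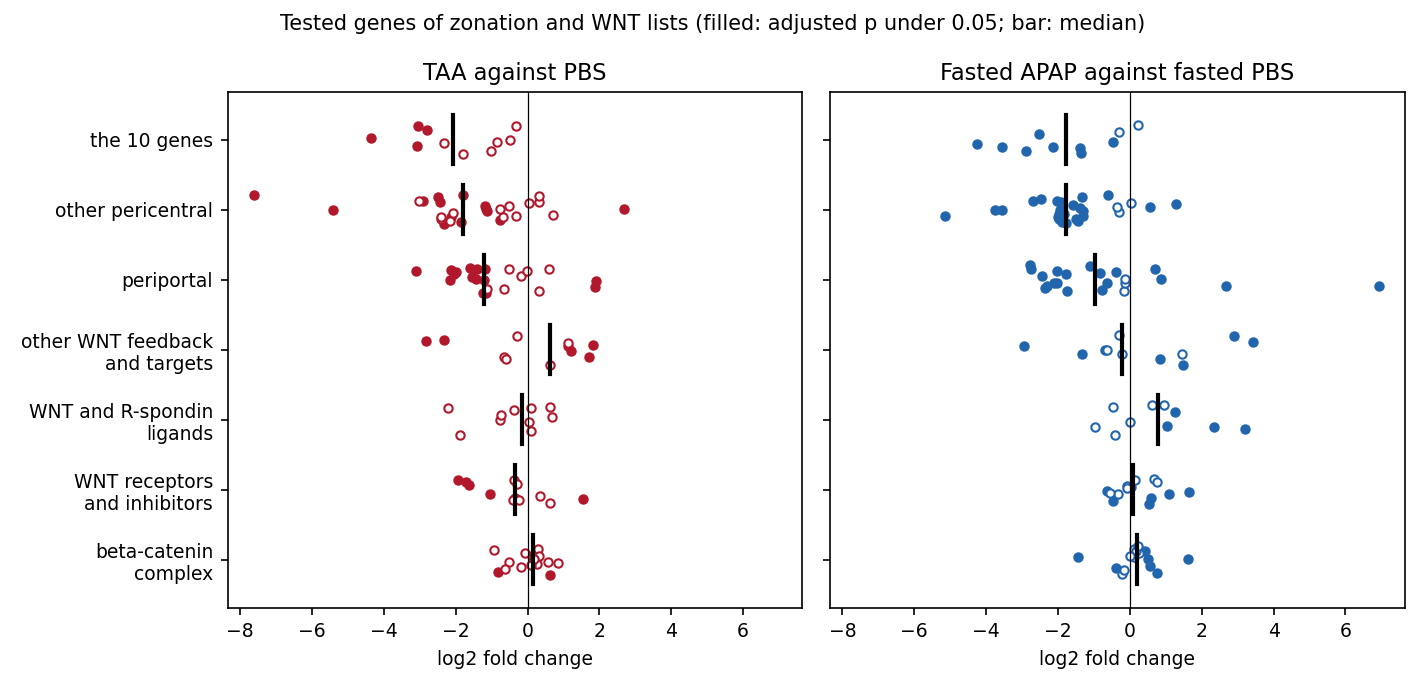
Log2 fold change of every tested gene in 7 lists, TAA against PBS on the left and fasted APAP against fasted PBS on the right. Filled points have an adjusted p under 0.05 and black bars are list medians. The 10 genes and the other pericentral genes have medians of -2.07 and -1.81 after TAA and -1.77 and -1.77 after APAP, the periportal genes -1.20 and -0.96, and the lists of WNT components lie nearer to 0.

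The remaining genes of the WNT pathway were called in both directions. Of 13 other feedback and target genes, 11 were tested in each model, and 4 rose and 2 fell with TAA while 4 rose and 3 fell with APAP. Among all tested genes, 12.1% were called higher and 13.8% lower after TAA, and 28.6% and 27.5% after APAP. The list counts here and below were not tested against these shares, and the APAP counts of this list lie near them. Notum, a secreted enzyme that inactivates WNT ligands, went from 25.1 and 45.3 CPM to 4.14 and 9.83 CPM with TAA and from 26.2 and 29.0 CPM to 4.97 and 2.31 CPM with APAP. Its log2 fold changes were thus of the size seen for Rhbg, -2.33 and -2.93 (adjusted p = 0.0282 and 0.000656 from edgeR). Rnf43 and Znrf3, ubiquitin ligases that remove WNT receptors, fell after APAP (-1.34 and -0.69, adjusted p = 8.73e-05 and 0.0061 from edgeR). With library totals or hepatocyte scaling, Rnf43 had -1.16 to -0.88 and Znrf3 -0.50 to -0.22. Hepatocyte scaling left 2 genes of this list lower after APAP. Myc, a target with many other inputs, rose by 1.81 with TAA and 3.42 with APAP (adjusted p = 0.00721 and 3.03e-07), and Ccnd1, which drives entry into the cell cycle, rose by 1.72 after TAA (adjusted p = 0.0284). Tnfrsf19, a receptor of the TNF family, had log2 fold changes of opposite sign, -2.82 with TAA and 1.49 with APAP (adjusted p = 0.00579 and 4.2e-05 from edgeR), and the TAA effect minus the APAP effect was -4.33 (adjusted p = 0.000667 from edgeR, 8 livers). Over the livers left out in turn, 0 to 4 genes of this list were higher and 1 to 3 lower after TAA, with 0 higher without PBS replicate 1 or 2, and 3 to 5 were higher and 3 to 4 lower after APAP. Of the genes of this list named here as called after TAA, Tnfrsf19 alone was called whichever liver was left out, and those named as called after APAP each were.

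Of 12 WNT and R-spondin ligands 10 were tested, and edgeR called 0 after TAA and 4 higher after APAP. Over all tested genes, 25.8% were called in either direction after TAA and 56.2% after APAP. After TAA, 1 ligand had an unadjusted p under 0.05 by edgeR, DESeq2 called 1 lower and limma-voom called 0. That ligand, named after its values were seen, was Wnt9b, which the endothelium of the central vein makes, with 0.94 and 1.64 CPM in PBS livers and 0.15 and 0.39 CPM in TAA livers (log2 fold change -2.23, adjusted p = 0.0553 from edgeR). After APAP, DESeq2 called 1 ligand and limma-voom 4. Of the 4 called by edgeR, Wnt11 and Rspo1 reached at most 0.185 CPM in fasted PBS livers and passed the filter through the APAP livers, and each was called in 1 of the fits that left out a liver. Rspo3, an R-spondin that central vein endothelium makes, had 2.31 and 3.19 CPM with fasted PBS and 6.24 and 6.79 CPM with APAP, which is a rise of 1.25 on the log2 scale (adjusted p = 0.00173 from edgeR, standard error 0.24). Rspo3 was called whichever liver was left out, while the number of ligands called was 1 without either APAP liver and 2 without fasted PBS replicate 1. Of 20 receptors and inhibitors, 12 were tested in the TAA model (1 higher, 4 lower) and 14 in the APAP model (4 higher, 2 lower). Lgr4, another R-spondin receptor, fell in both models, with -1.05 for TAA and -0.63 for APAP (adjusted p = 0.00822 and 0.000998 from edgeR), against -3.08 and -3.55 for Lgr5. With library totals or hepatocyte scaling, Lgr4 had -0.85 to -0.78 for TAA and -0.45 to -0.18 for APAP. Scaled to hepatocyte markers, 0 of the receptors and inhibitors were lower in either model. The TAA call of Lgr4 was also lost in some fits that left out a liver. Of 16 genes of the beta-catenin complex and its partners, 1 rose and 1 fell with TAA, and 5 rose and 2 fell with APAP, and with library totals 4 and 9 were higher. Btrc, the ligase subunit that marks beta-catenin for degradation, was lower in both (-0.83 and -1.44, adjusted p = 0.0359 and 0.000158 from edgeR). With library totals or hepatocyte scaling, 0 genes of the complex were lower after TAA, so the TAA call of Btrc was lost. It was also lost in some fits that left out a liver, while its APAP call was kept in each. Without PBS replicate 2, edgeR called 0 genes of these 3 lists after TAA, with 0 ligands, 6 receptors and inhibitors and 4 genes of the complex at an unadjusted p under 0.05, and the other tools were not run without that liver.

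Genes around the metabolic members moved in both directions. Of 22 genes of glutamine, glutamate and ammonia handling other than Glul, Oat, Slc1a2 and Rhbg, 18 were tested in the TAA model (6 higher, 7 lower) and 17 in the APAP model (3 higher, 9 lower). Slc38a3, a glutamine transporter of hepatocytes, fell in both models (-1.72 and -1.89, adjusted p = 0.0105 and 4.42e-06), and Aldh4a1, a mitochondrial enzyme that forms glutamate from proline, fell likewise (-1.78 and -2.47, adjusted p = 0.00966 and 2.52e-07 from edgeR). Of 6 genes of ascorbate synthesis and transport other than Gulo, 3 were lower after TAA, and 3 were lower and 1 higher after APAP. Rgn, which acts just before Gulo in ascorbate synthesis, fell in both models (-1.84 and -1.93, adjusted p = 0.023 and 1.63e-06). Slc23a2, an ascorbate transporter, fell after TAA (-1.11) and rose after APAP (1.97), each past the test (adjusted p = 0.0332 and 0.000253 from edgeR), with a difference of -3.11 between the effects (adjusted p = 0.00342 from edgeR, 8 livers). The TAA calls of Slc38a3, Aldh4a1, Rgn and Slc23a2 were not all kept when single livers were left out, each being lost somewhere. Their APAP calls were kept whichever liver was left out. Without PBS replicates 1 and 2, 2 and 0 genes of the glutamine list were higher and 5 and 2 lower after TAA, and 2 and 1 of the ascorbate list were lower.

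Markers of hepatocytes as a whole had medians nearer to 0 than the 10 genes. Of 7 such markers that matched, 1 was lower after TAA, and 0 when any liver was left out, with a median log2 fold change of -0.21, and 5 were lower after APAP with a median of -0.48. Their summed level was 71640 and 101900 CPM with PBS, 54620 and 96220 CPM with TAA, 117500 and 103200 CPM with fasted PBS and 86960 and 73960 CPM with APAP. With livers scaled to these markers, 5 of the 10 genes were lower after TAA, against 7.60% of all genes called in either direction. After APAP, 7 were lower and 1 higher, against 56.3% of all genes called, 76.7% of these calls being higher. Markers of other cells moved with the injury, and their part in the results was not tested. Summed neutrophil markers ranged from 47.7 to 64.5 CPM in PBS livers and from 93.8 to 108 CPM in TAA livers, with 4 of the 6 tested called higher. They ranged from 2.48 to 3.19 CPM in fasted PBS livers and from 21.6 to 22.6 CPM in APAP livers, with all 6 tested called higher, Retnlg at 0 in both fasted PBS livers and Ly6g, a marker that defines these cells, at 0 in 3 of the 4 fasted livers. Monocyte and macrophage markers ranged from 183 to 205 CPM and from 331 to 348 CPM in the TAA model, and from 25.0 to 47.9 CPM and from 69.0 to 76.2 CPM in the APAP model, with 4 of 7 tested higher after TAA and 4 of 6 after APAP. Those of sinusoidal and central vein endothelium, which makes the WNT ligands, ranged from 238 to 314 CPM and from 240 to 326 CPM in the TAA model, and from 216 to 250 CPM and from 283 to 302 CPM in the APAP model, with 3 of 10 higher and 3 lower after TAA and 5 higher and 2 lower after APAP. Of 6 Kupffer cell markers, 1 was higher and 3 lower with TAA and 2 were lower with APAP. Of 7 stellate cell markers, 2 were higher with TAA, and 1 was higher and 1 lower with APAP. Of cholangiocyte markers, 1 of 6 tested was higher with TAA and 1 of 5 with APAP. The marker counts also rested on single livers. Without PBS replicates 1 and 2, 1 and 0 neutrophil markers, 2 and 1 monocyte and macrophage markers and 1 and 1 stellate cell markers were higher after TAA, while 1 and 0 endothelial and 1 and 0 Kupffer cell markers were lower and 1 and 1 endothelial markers were higher. No endothelial marker was lower without TAA replicate 1 either, and 1 Kupffer cell marker was. After APAP, Kupffer cell markers called lower numbered 5 without fasted PBS replicate 1 and 0 without APAP replicate 2, and DESeq2 and limma-voom called 4 and 5. Monocyte and macrophage markers called higher numbered 2 without APAP replicate 2, and cholangiocyte markers 0 without either fasted PBS liver.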

How the data were processed

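Libraries made from total RNA of 8 livers were sequenced. Values deposited by the authors for the TAA model are whole-number counts of reads per gene. Those deposited by the authors for the APAP model are estimated counts, of which 26.4% to 29.1% of nonzero values were not whole. These were rounded before testing, although the design had assumed counts, and the step that made them fractional is not given in the sources used here. The submitters' processing notes name Trim Galore, HISAT2, featureCounts and GRCm38 (mm10), with no versions. Counts in named genes came to 35711238 to 41453751 per liver in the TAA model and 22320159 to 27110074 in the APAP model. Rows of 548 assembled loci that name no gene, with 0.457% to 0.498% of counts in fasted PBS and 2.43% to 2.46% in APAP livers, were left out. Columns of other samples numbered 0.

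TAA was tested against PBS and APAP against fasted PBS using edgeR 4.0.16 (R 4.3.3), after filterByExpr (minimum count 10, minimum total 15) and TMM scaling, by the robust quasi-likelihood test with Benjamini-Hochberg adjustment over all tested genes and a threshold of 0.05. Standard errors were derived from the log2 fold change and its F statistic, and so are approximate. The difference between models was fitted over all 8 livers. TPM used merged exon lengths of GENCODE M21 (GRCm38), the assembly the authors used. Replicate ratios used CPM with 0.5 added. The test was also tried on simulated counts. Replicates of a group differed by far more than sampling noise, so none is a copy. The replicate numbers did not pair the livers (correlation of same-numbered deviations 0.06 for TAA and 0.06 for APAP).

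The 10 genes, the 15 other lists and the rule for naming were chosen with earlier results of these data known. The rule named all 10 genes and, from each other list, up to 4 called genes per comparison and direction by highest mean CPM, of which some are described. Of 199 entries, the 10 genes included, 197 matched a gene. Alternatives were DESeq2 1.42.0, other scalings, no filter, no robust moderation, all 8 livers in 1 fit, values not rounded, a replicate block and leaving out each liver. Chosen after seeing the data were limma-voom (limma 3.58.1) and adding the counts of Mir8114, a microRNA within a Glul exon, to Glul. Promoters are from RefSeq. Figures were drawn with matplotlib.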

Additional observations from a re-analysis of the deposited data

Results flagged for a closer look

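The response of Lect2 differed between the models by a test of the difference itself. Feeding, dose, route and the way the counts were made differ together with the toxicant. Lect2 was the only 1 of the 10 genes called, a count near the share of 11.0% of all 17381 genes. Its TAA effect minus its APAP effect was 1.00 on the log2 scale (adjusted p = 0.0252 by edgeR over all 8 livers, standard error 0.22). Over the 16 alternatives tried the difference ranged from 0.83 to 1.25 and was called in 10.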

How the results depend on the processing

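After TAA, 4 of the 10 genes were called in the main fit. The count was 8 with all 8 livers in 1 fit, 7 with limma-voom, and 1 to 8 when a liver was left out, and 3 to 6 under the other scalings, filters and DESeq2. With the replicate number as a replicate block it was 7, although the numbers did not pair the livers. The share of all genes called after TAA was 25.8% in the main fit and 34.4% with all 8 livers in 1 fit. It was 25.1% with limma-voom, 23.0% with the replicate block and 7.60% to 30.5% under the other scalings, filters and DESeq2. No member changed sign after TAA under any alternative, and the cause of the other shifts was not tested. After APAP, where 8 were called, every alternative gave 6 to 8 (7 with the replicate block, where Slc1a2 had an adjusted p of 0.0806 from edgeR), except that scaling to hepatocyte markers called 7 lower and Axin2 higher. The share of all genes called after APAP was 56.2% in the main fit and 39.6% with all 8 livers in 1 fit. It was 49.1% with DESeq2, and with no filter 8912 of 25443 genes were called. The other scalings, limma-voom, the replicate block, unrounded values and no robust moderation gave 55.4% to 56.3%. Signs that turned after APAP were those of 2 genes that were not called, Nkd1 (0.17 when scaled to hepatocyte markers) and Axin2 (-0.14 without APAP replicate 2, and up to 0.50 when another liver was left out). Of the difference between models, with 1 gene called, DESeq2 called 3, library totals 2 and leaving out a liver 0 to 4. The share of all genes called for the difference was 11.0% in the main fit, 14.3% with DESeq2 and 10.2% with library totals. For the difference the sign turned for Oat (-1.46 to 0.42 over the livers left out), Rhbg (-0.96 to 1.33) and Slc1a2 (-1.59 to 0.97).

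Over all genes, scaling to hepatocyte markers called 1280 after TAA and 771 for the difference, against 4348 and 1913. Leaving out PBS replicates 1 and 2 called 1126 and 737 after TAA, and leaving out a fasted liver called 698 to 867 for the difference. Library totals moved the median log2 fold change of all genes by 0.20 (TAA) and 0.18 (APAP), and hepatocyte scaling by 0.27 and 0.46. With hepatocyte scaling the share of calls that were higher was 63.4% after TAA and 76.7% after APAP, against 46.7% and 51.0%. With library totals it was 63.4% and 61.9%. With the counts of Mir8114 added, Glul had a log2 fold change of -3.02 after TAA (adjusted p = 0.0187 from edgeR). With 2 livers per group, depth limits Lgr5 most, at 11 and 14 counts after APAP.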

Other observations

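Mir8114 lies within an exon of Glul on the same strand and shares 93 bases with it. It had 2190 counts in PBS replicate 1 and 1 in PBS replicate 2, and 113 and 438 in the TAA livers, while it had 0 in all 4 fasted livers. Glul itself had 42723 and 39478 counts in the PBS livers.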
